A study of Mus musculus with 3 samples.

Results

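The barcodes described here come from single-cell RNA sequencing of the mouse arcuate nucleus. They were chosen by 2 measured values, at least 500 detected genes and more than 20% of unique molecular identifiers (UMIs, 1 per captured transcript) from the 13 genes of the mitochondrial genome. They numbered 3823, of 18692 barcodes with at least 500 genes and 21143 barcodes in all, and are called high-mitochondrial barcodes below. The 14869 barcodes with at least 500 genes and at most 20% are called low-mitochondrial. All mice were male C57BL/6JRj, 5 to 6 weeks old, and entered the experiment at weaning. The SC group ate standard chow for 15 days. The 5-day group had 10 days of chow before 5 days on the high-fat high-sugar (HFHS) food, and the 15-day group had 15 days of HFHS food. The arcuate tissue was punched out, digested with enzymes and loaded on a 10x Genomics droplet system. Each diet was represented by a single library from 6 pooled mice, so diets could not be tested against each other. Values stand in the order SC, 5-day and 15-day unless stated otherwise.

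The mitochondrial genome encodes core subunits of the respiratory chain and of ATP synthase, and its transcripts are made and kept inside the organelle. The other subunits of the same complexes are encoded in the nucleus and translated in the cytosol. The share of mitochondrial transcripts is widely used to set barcodes aside before analysis, and cell types differ in how much of it they carry. The arcuate nucleus, at the base of the hypothalamus, holds neurons that control feeding and hormone release, tanycytes and ependymal cells that line the third ventricle, astrocytes, oligodendrocytes, microglia and vessels.

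High-mitochondrial barcodes made up nearly the same share of each library. They numbered 1332 of 6448 in the SC library (20.7%, exact 95% interval 19.7 to 21.7%), 1133 of 5385 in the 5-day library (21.0%, 19.96 to 22.2%) and 1358 of 6859 in the 15-day library (19.8%, 18.9 to 20.8%). The 3 intervals overlapped, and they cover counting error only. Their median mitochondrial share was 30.7%, with the middle 50% of barcodes between 24.6% and 40.5% and a highest value of 87.9%. A share of 20 to 30% was found in 1807 barcodes, 30 to 50% in 1485 and over 50% in 531. Together they held 39.4% of all mitochondrial UMIs and 8.15% of all other UMIs of the 18692 barcodes. Their median depth was 3085 UMIs, 1917 of them non-mitochondrial, and 1252 genes, against 4889, 4572 and 2209 in low-mitochondrial barcodes. Both the share and the non-mitochondrial depth enter the rule, so these values only describe what the rule selected. Just below the limit, the 431 barcodes at 18 to 20% were 29.0% neuron-like and 43.4% astrocyte-like. Just above it, the 442 barcodes at 20 to 22% were 36.2% and 37.3%.

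To find which cells the high-mitochondrial barcodes came from, all 18692 barcodes were clustered without the mitochondrial genes, and clusters were named from marker genes. Of the neuron-like clusters only cluster 16, with 181 high-mitochondrial barcodes, was named directly. The other neuron-like clusters had too few leading markers and took their class from a coarser clustering, a step chosen after seeing the data. Most high-mitochondrial barcodes were neuron-like: 2365 of 3823, or 61.9% (64.9%, 56.6% and 63.3% in the 3 libraries), whereas neuron-like barcodes made up 7.53% of the low-mitochondrial ones. Seen from the class, 67.9% of the 3484 neuron-like barcodes were high-mitochondrial. The share was 69.8% (67.1 to 72.3%) in the SC library, 68.2% (65.1 to 71.2%) in the 5-day library and 65.9% (63.2 to 68.5%) in the 15-day library. The neuron-like share was thus over 65% in every library, and no other class reached 30% in any of the 3.

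Astrocyte-like barcodes came second, with 718 barcodes or 18.8% of the high-mitochondrial ones. Within this class 19.7% of 3650 were high-mitochondrial, and the libraries differed: 23.2% (20.6 to 25.8%) in SC, 26.9% (24.4 to 29.6%) in 5-day and 11.5% (9.88 to 13.2%) in 15-day. Oligodendrocyte-like barcodes differed in another order, with 9.87% (7.53 to 12.7%), 15.8% (12.5 to 19.5%) and 25.8% (22.4 to 29.4%), and 17.6% of 1618 over all libraries. The 15-day library was therefore lowest for astrocyte-like and highest for oligodendrocyte-like barcodes, with intervals apart from those of the other libraries in both classes. With at least 1000 genes per barcode the astrocyte-like share was 9.67% and the oligodendrocyte-like share 8.72%, and the oligodendrocyte-like order changed, with 7.05%, 11.4% and 8.23%. Each interval covers counting error of 1 pool, and the part of diet or of library preparation in these differences cannot be told apart. Among tanycyte-like barcodes 14.8% of 2125 were high-mitochondrial (15.3%, 12.2% and 16.0%), a share that was 9.21% with finer clusters and 8.98% when classes were assigned by expression profile.

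The remaining classes contributed few barcodes. High-mitochondrial barcodes were 4.53% of 817 oligodendrocyte precursor-like (OPC-like) barcodes, 2.60% of committed precursor-like, 1.63% of 2212 ependymal-like, 1.44% of pericyte-like, 1.34% of 1194 endothelial-like and 0.931% of 1826 microglia-like barcodes. The median mitochondrial share followed the same division, at 27.7% in neuron-like, 12.2% in astrocyte-like, 7.85% in tanycyte-like, 6.49% in oligodendrocyte-like, 3.42% in microglia-like and 3.29% in ependymal-like barcodes. Only 8 high-mitochondrial barcodes lay in unnamed clusters.

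**Figure D1:**
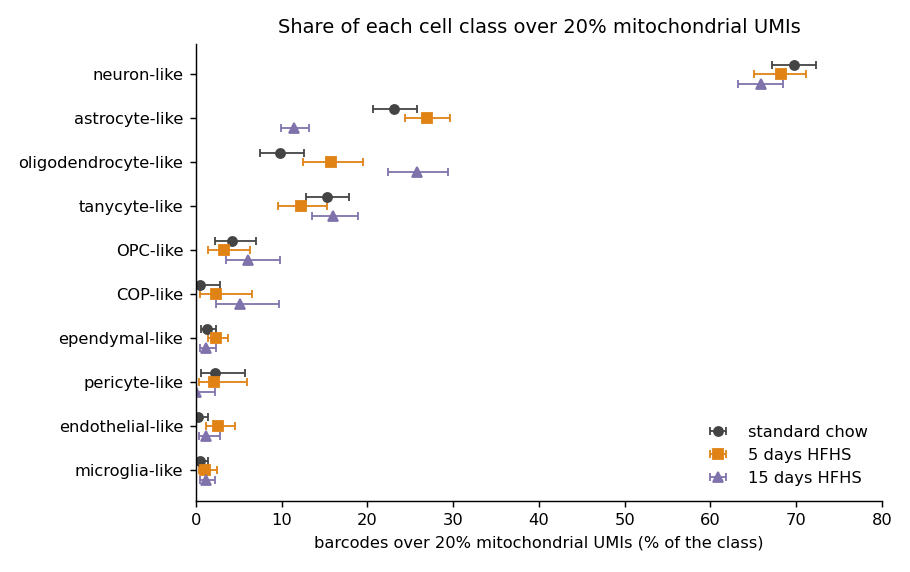
Share of each cell class over 20% mitochondrial UMIs (x axis, percent) by class (y axis), with 1 point per library and bars for the exact 95% interval. Neuron-like barcodes lie between 65.9% and 69.8% in the 3 libraries, astrocyte-like barcodes between 11.5% and 26.9%, and microglia-like and endothelial-like barcodes close to 0.

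Single marker genes were also counted without clusters. Each barcode was thinned to 500 non-mitochondrial UMIs, which left out no barcode, so that depth did not set the detection. Of the high-mitochondrial barcodes, 59.6% (64.2%, 51.5% and 61.8%) then held a UMI of Meg3, a long noncoding RNA abundant in neurons, or of Snap25, a protein of synaptic vesicle fusion. Ntsr2, a neurotensin receptor of astrocytes, or Slc6a11, the GABA transporter of astrocytes, was found in 22.0% (20.6%, 30.01% and 16.7%). The neuron pair was thus less frequent and the astrocyte pair more frequent in the 5-day library, which was also the order of the clusters. The oligodendrocyte marker Mog, a myelin surface protein, was found in 3.87%, and the tanycyte transcription factor Rax in 1.57%. Cldn5, a tight junction protein of brain endothelium, was found in 1.52% and the microglial chemokine receptor Cx3cr1 in 0.575%, and 20.5% held none of the 8 genes.

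Some of these detections lay near the level of free RNA, which a class that should lack the gene can measure. After thinning, Meg3 was found in 55.5% of high-mitochondrial barcodes, 17.1% of low-mitochondrial ones and 3.18% of microglia-like barcodes. Snap25 was found in 16.0%, 3.78% and 1.53%, Mog in 3.87%, 7.14% and 0.93%, and Cldn5 in 1.52%, 8.48% and 0.66%. Cx3cr1 was found in 0.58% of high-mitochondrial, 7.98% of low-mitochondrial and 0.27% of astrocyte-like barcodes. The median non-mitochondrial depth before thinning was 1917 UMIs in high-mitochondrial and 4934.5 in microglia-like barcodes, and without thinning Meg3 was found in 62.7%, 37.5% and 14.4%. Meg3 and Snap25 stood far above the background share, while Cx3cr1 stood little above it. Meg3 was not limited to neuron-like clusters. Scaled to the non-mitochondrial total of the cluster (CPM), it had 3637 in tanycyte-like cluster 3 and 3595 in erythroid-like cluster 25. It had 17985 in neuron-like cluster 15.

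Within their own class, most defining markers stayed present. The same markers served to name the classes, so their presence does not test which cells the barcodes came from. In high-mitochondrial astrocyte-like barcodes Ntsr2 had 1957, 1973 and 1578 CPM (UMIs scaled to the non-mitochondrial total of that class and library), against 2214, 2189 and 2205 in low-mitochondrial ones. In high-mitochondrial tanycyte-like barcodes Rax had 272, 225 and 267 CPM against 419, 434 and 475, and in oligodendrocyte-like barcodes Mog had 1149, 1240 and 872 against 2154, 2208 and 1784. Markers of each class were thus detected at the scale of that class, with Rax and Mog below every low-mitochondrial value. In neuron-like barcodes Snap25 had 563, 542 and 528 CPM against 661, 584 and 551.

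The mix of classes changed with the mitochondrial share itself. Neuron-like barcodes were 5.05% of barcodes below 10%, 15.9% at 10 to 20%, 42.9% at 20 to 30%, 72.0% at 30 to 50% and 97.9% (96.7%, 98.2% and 99.3%) over 50%. Astrocyte-like barcodes peaked in between, with 11.6%, 47.1%, 30.5%, 10.8% and 1.13% over the same ranges. Microglia-like barcodes went from 15.0% below 10% to 2.79%, 0.775%, 0.202% and 0 of the 531 barcodes over 50%, where a count of 0 allows up to 0.565%. The barcodes over 50% were therefore almost all neuron-like in every library. They were also the shallowest, with a median of 997 non-mitochondrial UMIs against 2206 at 20 to 30% and 2137 at 30 to 50%.

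**Figure D2:**
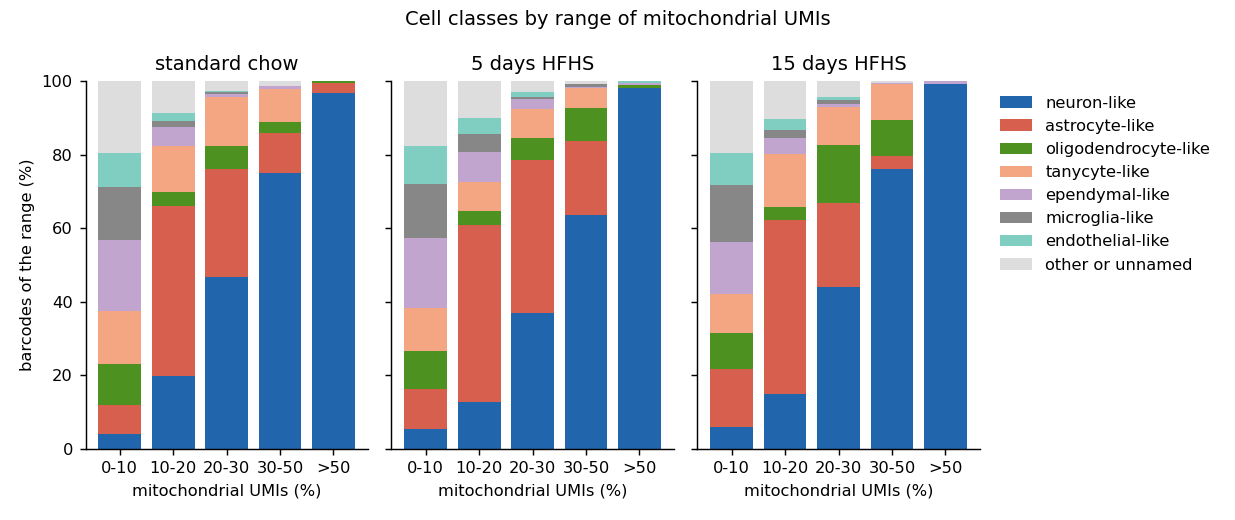
Percent of barcodes in each class (y axis, stacked bars) by range of the mitochondrial share (x axis), with 1 panel per library. Over all libraries together, the neuron-like share goes from 5.05% below 10% to 97.9% over 50%, and the astrocyte-like share is highest at 10 to 20% (47.1%).

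The counts behind a high share differed between classes. High-mitochondrial neuron-like barcodes had a median of 1788, 2048 and 1270 mitochondrial UMIs, against 694, 572 and 559 in low-mitochondrial ones, and 3205, 3124 and 2218 other UMIs against 4818, 4509 and 4204. Over the whole class they thus had more mitochondrial and fewer other UMIs in every library. Within neuron-like clusters 13, 16 and 20 the other UMIs were instead more numerous in high-mitochondrial barcodes, with medians of 3220.5 against 2956, 1143 against 1103 and 1077 against 818. High-mitochondrial oligodendrocyte-like barcodes had 842, 1030 and 606 mitochondrial UMIs against 781, 982 and 623.5, but 2272, 2207.5 and 1615 other UMIs against 13307.5, 14856.5 and 8919.5. High-mitochondrial tanycyte-like barcodes had 656.5, 603 and 523 mitochondrial UMIs against 842, 951 and 581, and 1647, 1473 and 1277 other UMIs against 11583, 12775 and 6947. Over both whole glial classes the mitochondrial counts were close to or below those of low-mitochondrial barcodes, and the other UMIs were several-fold fewer. Within tanycyte-like cluster 3, which held most of the high-mitochondrial barcodes, the medians were 575 against 272 mitochondrial and 1409 against 1719 other UMIs, and within oligodendrocyte-like cluster 21 they were 715.5 against 590.5 and 1801.5 against 3254. The several-fold difference was thus seen against the other clusters of each class, which held most low-mitochondrial barcodes. Astrocyte-like barcodes lay between, with 436, 510 and 359 mitochondrial UMIs against 328, 406.5 and 264, and 1233, 1370.5 and 1108 other UMIs against 2523, 3388 and 2408. Since the rule is a ratio of these quantities, they are given with no test.

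**Figure D3:**
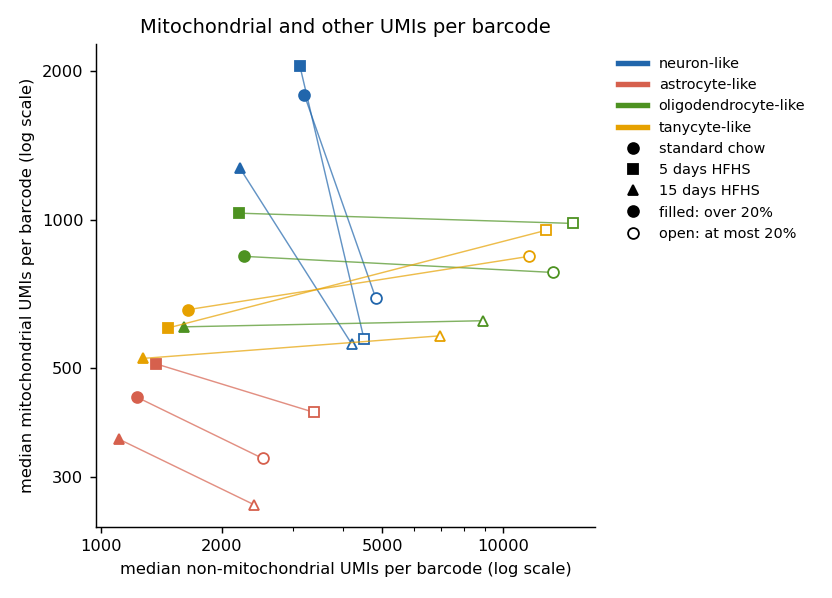
Median mitochondrial and non-mitochondrial UMIs per barcode (log axes) in high- and low-mitochondrial barcodes of 4 classes, with 1 point per library. Neuron-like barcodes differ in both counts, whereas oligodendrocyte-like barcodes have like mitochondrial counts (606 to 1030 against 623.5 to 982) and far fewer other UMIs (1615 to 2272 against 8919.5 to 14856.5).

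Among the mitochondrial genes themselves the proportions also differed. In high-mitochondrial barcodes the cytochrome c oxidase subunit gene mt-Co3 took 21.5% ± 0.40 of the mitochondrial UMIs (SD, n = 3 libraries), against 19.7% ± 0.42 in low-mitochondrial barcodes. The ATP synthase subunit gene mt-Atp6 took 15.1% ± 0.38, mt-Co2 13.4% ± 0.48 and the cytochrome b gene mt-Cytb 12.2% ± 0.89. For mt-Co1, a core subunit of cytochrome c oxidase, the share was 11.1% ± 0.34 against 13.9% ± 0.20, lower in every library. The complex I gene mt-Nd1 took 7.78% ± 0.26 against 5.87% ± 0.24 over all classes, but 8.21% ± 0.24 against 7.88% ± 0.46 within neuron-like barcodes. Within classes, mt-Co1 differed by a log2 ratio of -0.12 in neuron-like, -0.15 in tanycyte-like, -0.21 in oligodendrocyte-like and 0.06 in astrocyte-like barcodes. These are means over the 3 libraries and are given as a description.

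The next comparison asked what non-mitochondrial RNA remained. For each class with enough barcodes, non-mitochondrial UMIs were summed per library in high- and low-mitochondrial barcodes and compared over the 3 libraries with edgeR's quasi-likelihood test, with library as a block and Benjamini-Hochberg adjustment at 0.05 over all genes tested. The rule sets the total of these UMIs but not their composition. In neuron-like barcodes 44.0% of 13125 genes were called, 2726 higher in high-mitochondrial barcodes (20.8%) and 3052 lower (23.3%). In tanycyte-like barcodes 32.9% of 12719 were called, 1732 higher (13.6%) and 2458 lower (19.3%), and in oligodendrocyte-like barcodes 32.8% of 10298, 1398 higher (13.6%) and 1983 lower (19.3%). In astrocyte-like barcodes 6.28% of 10852 were called, 445 higher (4.1%) and 237 lower (2.18%). Log2 ratios below use trimmed-mean (TMM) scaling, under which the median over all genes was 0.05, -0.02, 0.00 and 0.01 in these classes in this order. Without it, that median was 0.28, 0.41, 0.21 and 0.04, and the calls higher and lower became 4804 and 2082, 3293 and 1378, 1939 and 1442, and 508 and 197.

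In the glial classes high- and low-mitochondrial barcodes lay mostly in different clusters. Of the tanycyte-like high-mitochondrial barcodes 293 of 314 lay in cluster 3, and of the oligodendrocyte-like ones 276 of 284 in cluster 21. Of the astrocyte-like ones 71.2% lay in cluster 1, while cluster 0 held 84.9% of the UMIs of low-mitochondrial astrocyte-like barcodes. By number of barcodes, 2 large neuron-like clusters were shared more evenly. Cluster 15 held 33.1% of the high- and 30.3% of the low-mitochondrial barcodes, and cluster 20 held 29.2% and 19.2%. By UMIs, neuron-like cluster 15 held 52.4% of the UMIs of high-mitochondrial and 32.2% of those of low-mitochondrial neuron-like barcodes. Clusters 13 and 20 held 11.1% and 10.3% of the high-mitochondrial UMIs, but 1.20% and 1.80% of the low-mitochondrial ones. Clusters 27 and 28 held 2.77% and 0.124% of the high-mitochondrial UMIs, but 18.5% and 18.04% of the low-mitochondrial ones. The sums compared in this class thus also differed in their mix of neuron-like clusters. Within the 1 cluster that held most of a class's high-mitochondrial barcodes, a comparison added after seeing the data called 357 genes higher and 299 lower in neuron-like, 1369 and 1615 in tanycyte-like, 554 and 709 in oligodendrocyte-like, and 97 and 45 in astrocyte-like barcodes.

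In neuron-like barcodes the nuclear genes of the respiratory chain fell. All 38 genes of the list were lower in high-mitochondrial barcodes, with a median log2 ratio of -2.01. They took 0.458%, 0.444% and 0.599% of non-mitochondrial UMIs against 1.26%, 1.71% and 1.85%, so the groups did not overlap. Ndufa4, a subunit of the respiratory chain, had 141, 139 and 207 CPM against 614, 845 and 894 (log2 ratio -2.51 ± 0.15 SE, adjusted p = 7.3e-11). Cox4i1, a nuclear subunit of cytochrome c oxidase, had 232, 231 and 308 CPM against 690, 1012 and 1061 (log2 ratio -2.06). The nuclear and mitochondrial transcripts of the same complexes thus went opposite ways between these barcodes, the latter by the rule.

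Cytosolic ribosomal protein genes fell in the same class, with 83 of 83 lower and a median log2 ratio of -1.63. They took 2.91%, 2.86% and 3.82% of UMIs against 5.86%, 9.63% and 9.60%. Of the translation factors, 15 of 17 fell (median -1.21), and of 16 cytoskeleton genes 15 fell (median -1.31). Eef1a1, the elongation factor that brings tRNA to the ribosome, had 991, 948 and 1060 CPM against 1775, 2954 and 2276, and the actin gene Actb had 552, 552 and 589 against 1321, 1721 and 1545. Of 14 cytosolic heat shock genes 9 fell (median -0.77, but 0.11 within cluster 15). Of 18 glycolysis genes 10 fell, and of 23 antioxidant genes 16 fell and 1 rose. Over all genes tested in this class 23.3% were lower and 20.8% higher. Among 18 immediate early genes, which respond quickly to neuronal activity and to cell handling, 8 fell. Fos, 1 of them, had 15.6, 22.7 and 24.4 CPM against 21.6, 57.9 and 65.7.

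In cluster 15, which held most of the UMIs, the medians were nearer 0. The median log2 ratio there was -0.17 for the respiratory chain, -0.08 for translation factors, -0.29 for cytoskeleton genes and -0.18 for ribosomal proteins, of which 13 fell. Of the 38 respiratory genes edgeR called 0 there, and 10 were lower at an unadjusted p under 0.05. Ndufa4 had a log2 ratio of -0.11 there. In other neuron-like clusters the ribosomal share differed by a mean log2 ratio of -0.99 ± 0.34 (cluster 16), -1.27 ± 0.15 (cluster 20) and -1.49 ± 0.21 (cluster 26; SD, n = 3 libraries), against -0.21 ± 0.12 in cluster 15. The respiratory share differed by -1.07, -1.74 and -2.16 against -0.18. The size of the difference therefore depended on the neuron-like cluster, and no test compared the clusters.

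The genes that rose in neuron-like barcodes included receptors and membrane proteins of neurons. Npy1r, a receptor for neuropeptide Y, had 198, 221 and 233 CPM against 75.8, 83.1 and 59.6 (log2 ratio 1.34 ± 0.12, adjusted p = 6.9e-09), and a ratio of 0.79 within cluster 15. Lrrc55, an auxiliary subunit of potassium channels, had 49.6, 46.1 and 52.7 CPM against 17.8, 16.5 and 14.6 (log2 ratio 1.36), and Tmtc1 had 135, 93.3 and 122 against 44.9, 35.5 and 41.9 (1.28). For these genes every high-mitochondrial value exceeded every low-mitochondrial one. Non-overlap of single genes is given here and below as a description, without its share over all genes tested. With finer clusters, 467 barcodes of cluster 15, 408 of them high-mitochondrial, fell in a cluster with Npy1r among its leading genes. Another 351, 183 of them high-mitochondrial, fell in a cluster led by Avp. The part of this mix in the Npy1r ratio within cluster 15 was not tested. Slc6a17, a vesicular amino acid transporter of neurons, rose by 0.99. Vgf, a precursor of neuropeptides, had 490, 555 and 498 CPM against 212, 288 and 179.

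Of 11 hypothalamic peptides 8 fell in neuron-like barcodes, where 23.3% of all genes tested were lower. Agrp, the appetite-stimulating peptide of the melanocortin system, had 122, 122 and 137 CPM against 391, 1076 and 821 (log2 ratio -2.71 ± 0.21, adjusted p = 7.9e-10), and Npy a log2 ratio of -2.35. Cluster 28, led by Agrp and Npy, held 18.04% of the UMIs of low-mitochondrial neuron-like barcodes, and 3 of its 74 barcodes (4.05%) were high-mitochondrial. Within cluster 15 the log2 ratio of Agrp was 0.44. Agrp had 40.5, 58.2 and 54.7 CPM in the high-mitochondrial barcodes of cluster 15, near its level in clusters that are not neuron-like (65.3 CPM in astrocyte-like cluster 1, 68.3 in ependymal-like cluster 2 and 52.1 in microglia-like cluster 4), so no direction is read from that ratio. In contrast to cluster 28, cluster 13, led by Acvr1c, Npy, Kcnk9 and Irs4, had 270 of 302 barcodes (89.4%) above 20%. Its high-mitochondrial barcodes had 663.5, 846.1 and 666.9 CPM of Agrp and 2113, 2076 and 2429 CPM of Npy. Agrp there was thus above its level in the astrocyte-, ependymal- and microglia-like clusters given above. Neuron-like clusters therefore ranged from 4.05% to 89.4% high-mitochondrial barcodes, apart from cluster 31, led by Avp, with 0 of 23.

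In tanycyte-like barcodes nuclear noncoding RNAs rose. Malat1, a long noncoding RNA kept in the nucleus, took 9.97%, 8.70% and 11.2% of UMIs against 2.27%, 2.63% and 3.42% (log2 ratio 1.42 ± 0.29, adjusted p = 6.1e-06). Of the 7 nuclear-retained RNAs tested all 7 rose, with a median of 1.41. Neat1, the RNA scaffold of paraspeckles, had 390, 283 and 224 CPM against 78.8, 95.8 and 66.5, and Kcnq1ot1, an imprinted antisense transcript, had 1122, 875 and 848 against 230, 279 and 293. High- and low-mitochondrial values did not overlap for any of these 3 genes. Within cluster 3 the log2 ratio of Malat1 was 1.01 and missed the threshold.

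Genes of cytoplasmic machinery fell in the same barcodes, where 19.3% of all genes tested were lower and 13.6% higher. All 38 respiratory chain genes were lower (median -1.58), as were 82 of 83 ribosomal protein genes (-1.11), 15 of 16 cytoskeleton genes (-1.41), 19 of 25 antioxidant genes (-1.60) and 15 of 18 endoplasmic reticulum chaperones (-0.73), of which 2 rose. Within cluster 3 the respiratory median was -1.44 with 37 lower, and the ribosomal median -0.93 with 72 lower. Here the difference was thus also seen within a single cluster, although finer clusters split it unevenly. Of its barcodes, 212 of 416 and 8 of 94 in 2 tanycyte-like parts and 60 of 87 in an ependymal-like part were high-mitochondrial. The part of this mix was not tested. Tspo, a protein of the outer mitochondrial membrane, had 40.6, 24.99 and 36.4 CPM against 242, 245 and 238 (log2 ratio -3.19 ± 0.26, adjusted p = 3.6e-31). The metallothionein gene Mt3 had 1634, 2132 and 2236 CPM against 6465, 6331 and 7510 (-2.20), but a log2 ratio of 0.02 within cluster 3.

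The genes with the highest ratios in tanycyte-like barcodes were Dnah3, Dthd1 and Ankub1, the first a gene of motile cilia. Dnah3, an axonemal dynein, had 28.4, 83.3 and 30.3 CPM against 0.795, 0.285 and 0.633 (log2 ratio 5.70 ± 0.60, adjusted p = 1.4e-19), from 22 UMIs in high- and 20 in low-mitochondrial barcodes. Cilium genes also stood among the leading genes of cluster 3 (Cfap65, Dnah12, Lrriq1), beside the tanycyte genes Scn7a and Col25a1. With finer clusters, 87 of its 650 barcodes, 60 of them high-mitochondrial, formed an ependymal-like cluster led by Dnah12, Cfap65 and Spag17. The summed ependymal markers were nonetheless lower in high-mitochondrial tanycyte-like barcodes, at 1699, 1891 and 1824 CPM against 3487, 3549 and 3164. The part of ependymal cells in the cilium genes was not tested.

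Oligodendrocyte-like barcodes held the largest share of Malat1. It took 24.96%, 20.8% and 27.3% of non-mitochondrial UMIs against 8.47%, 8.16% and 10.2% (log2 ratio 1.23 ± 0.16, adjusted p = 6.5e-13), and within cluster 21 the log2 ratio was 1.07, past the threshold. Neat1 had 1179, 1225 and 1102 CPM against 372, 360 and 295 (1.57), and 5 of 7 nuclear-retained RNAs rose. In each library the high-mitochondrial value of both RNAs was over 2 times the low-mitochondrial one. Of the respiratory chain genes 37 of 38 fell (median -1.41), of the ribosomal protein genes 80 of 83 (-0.99), of the translation factors 16 of 17 (-1.16) and of the heat shock genes 10 of 14 (-1.29). Within cluster 21 these medians were -0.98, -0.52, -0.58 and -0.81.

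Cytoskeleton genes also fell in oligodendrocyte-like barcodes, 13 of 16 lower and 1 higher, with a median of -1.15 and of -0.63 within cluster 21. Tmsb4x, which binds actin monomers, had 1224, 1628 and 1087 CPM against 5679, 5411 and 5365 (log2 ratio -2.29 ± 0.14, adjusted p = 1.3e-55), and Actb 1418, 1947 and 1213 against 4654, 5092 and 4327. The gene that rose was Tubb2a, a beta-tubulin, with 127, 89.6 and 111 CPM against 49.2, 36.4 and 35.9. Hebp1, a haem-binding protein, had 7.46, 29.9 and 53.6 CPM against 218, 256 and 258 (-3.04). Mog fell with a log2 ratio of -1.14, against -0.25 within cluster 21. The cholesterol synthesis list, active in myelin-forming cells, had 10 of 22 genes lower and 2 higher. Over all genes tested in this class 19.3% were lower and 13.6% higher.

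Astrocyte-like barcodes went the other way for the ribosome. Of 83 ribosomal protein genes 72 rose, with a median log2 ratio of 0.87, and they took 4.46%, 4.58% and 7.88% of UMIs against 2.57%, 2.78% and 2.89%. Within cluster 1 the median was 0.47, with 49 higher. Of 17 translation factors 4 rose, among them Tpt1 (886, 852 and 1186 CPM against 512, 533 and 495) and the elongation factor Eef2 (408, 396 and 566 against 266, 268 and 289). Over all genes tested in this class 4.1% were higher and 2.18% lower. The ribosomal rise was present in each library and highest in the 15-day one. Of the 38 respiratory chain genes edgeR called 0 (median 0.05), with 4 higher and 1 lower at an unadjusted p under 0.05, and DESeq2 called 0. Malat1 took 8.82%, 9.78% and 7.19% against 10.0%, 9.24% and 9.58% (log2 ratio -0.20 ± 0.12, adjusted p = 0.4). These values do not show that the groups were alike.

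Other astrocyte-like genes changed by larger ratios. Kif5a, a kinesin motor of neurons, had 247, 418 and 663 CPM against 52.7, 85.3 and 70.8 (log2 ratio 2.57 ± 0.18, adjusted p = 7e-10), and 2.23 within cluster 1. Sytl4, a regulator of secretory granule release, had 91.3, 72.4 and 96.9 CPM against 9.20, 10.0 and 10.2 (3.08). Both were higher in every library, with no overlap. Genes that fell included Slc6a11 (2024, 2306 and 1872 CPM against 3246, 3493 and 3202) and Hsd11b1, an enzyme that activates glucocorticoids (34.9, 25.3 and 7.75 against 48.5, 83.0 and 73.7). Of 18 endoplasmic reticulum chaperones 6 fell, among them Hsp90b1 and Hspa5, where 2.18% of all genes tested were lower.

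**Figure D4:**
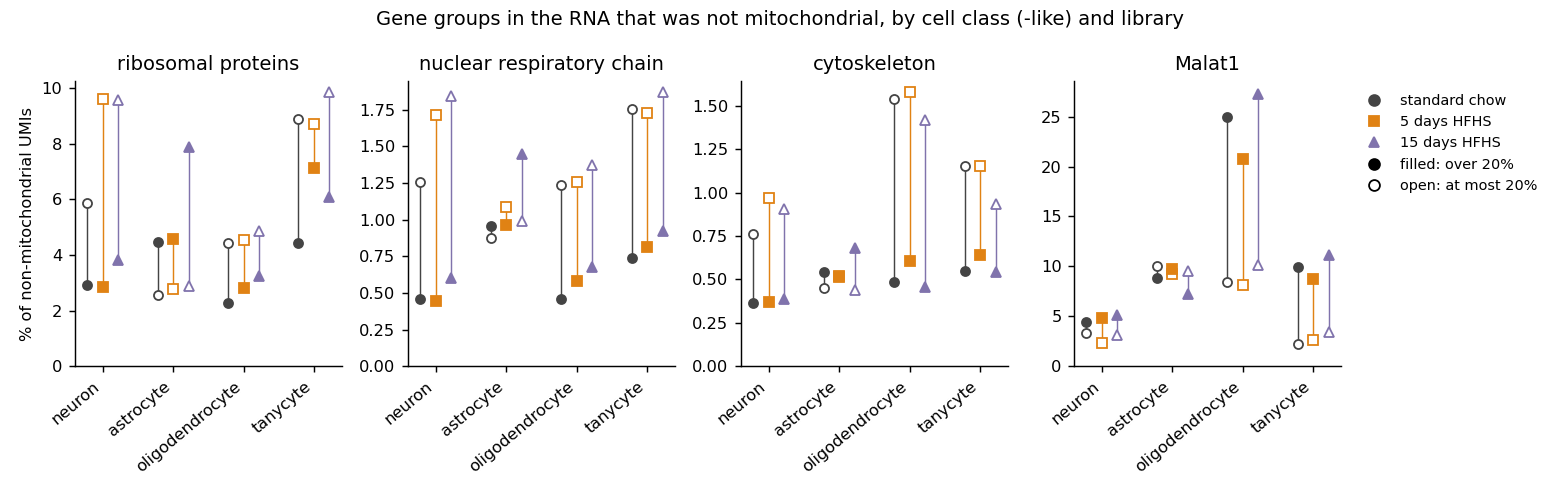
Percent of non-mitochondrial UMIs taken by ribosomal protein genes, nuclear respiratory chain genes, cytoskeleton genes and Malat1 in high- and low-mitochondrial barcodes of 4 classes (y axes), with 1 point per library. Ribosomal protein genes are lower in high-mitochondrial neuron-like barcodes (2.86 to 3.82% against 5.86 to 9.63%) and higher in astrocyte-like ones (4.46 to 7.88% against 2.57 to 2.89%).

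Lists tied to cell stress are given beside the share of all genes called, which was 20.8% higher and 23.3% lower in neuron-like barcodes. It was 13.6% and 19.3% in tanycyte-like and in oligodendrocyte-like barcodes, and 4.1% and 2.18% in astrocyte-like ones. Of the apoptosis and p53 genes 3 of 18 rose and 3 fell in neuron-like barcodes, 1 and 3 of 19 in tanycyte-like, and 1 and 4 of 16 in oligodendrocyte-like barcodes. In astrocyte-like barcodes edgeR called 0 of 16, with 1 lower at an unadjusted p under 0.05, and DESeq2 called 0. Of the mitochondrial and integrated stress response genes 1 of 16 rose and 6 fell in neuron-like and 1 of 14 and 6 in oligodendrocyte-like barcodes, while 5 of 15 fell in tanycyte-like and 2 of 13 in astrocyte-like barcodes. Of the mitophagy genes 2 of 12 rose in neuron-like barcodes while 10 fell. The counts of apoptosis and mitophagy genes that rose in neuron-like barcodes were thus near the share over all genes. Pink1, a kinase that marks damaged mitochondria, was the mitophagy gene that rose in astrocyte-like barcodes (153, 148 and 159 CPM against 76.1, 109 and 64.6). Of the genes for transcribing and processing mitochondrial RNA 1 of 15 was higher and 5 lower in neuron-like, 2 and 4 of 15 in tanycyte-like and 3 of 14 lower in oligodendrocyte-like barcodes, where 44.0%, 32.9% and 32.8% of all genes were called. Ppargc1a, a coactivator of mitochondrial gene programmes, was the 1 that rose in neuron-like barcodes (34.2, 35.8 and 35.3 CPM against 22.6, 15.8 and 27.3).

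Across classes, 43 genes were called higher and 54 lower in all 4. The shared higher genes included Slc6a17, Vgf, the adhesion gene L1cam, the prolactin receptor gene Prlr and the synaptic calcium sensor gene Syt1. Within neuron-like cluster 15 the log2 ratio of Prlr was -0.05. The shared lower genes included Spcs1, a subunit of the signal peptidase, with log2 ratios of -2.13 in neuron-like, -2.11 in tanycyte-like, -2.21 in oligodendrocyte-like and -0.61 in astrocyte-like barcodes, and the growth factor gene Ptn. Of the 2803 genes called in both neuron-like and tanycyte-like barcodes 96.9% had the same direction. The share was 95.1% of 2374 for neuron-like and oligodendrocyte-like, and 94.7% of 2089 for tanycyte-like and oligodendrocyte-like barcodes. With astrocyte-like barcodes it was 47.6% of 410 (neuron-like), 66.7% of 408 (tanycyte-like) and 57.5% of 405 (oligodendrocyte-like). The classes come from the same 3 libraries, so these shares are given as a description.

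Genes called higher and lower also differed in length, a property chosen after seeing the data. In neuron-like barcodes genes called higher had a median genomic span of 53.4 kb and genes called lower one of 12.2 kb, against 25.6 kb over all genes tested. In tanycyte-like barcodes the medians were 48.9 and 11.6 kb, and in oligodendrocyte-like barcodes 46.5 and 12.96 kb. Long genes thus lay among those higher and short genes among those lower in 3 classes. In astrocyte-like barcodes the medians were 16.9 and 17.5 kb.

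The sum of neuron markers was also higher in glial high-mitochondrial barcodes. The summed 10 neuron markers had 6280, 5431 and 5628 CPM against 1417, 1751 and 2053 in tanycyte-like barcodes, 866, 4471 and 723 against 525, 655 and 554 in oligodendrocyte-like, and 719, 706 and 849 against 391, 261 and 484 in astrocyte-like barcodes. In tanycyte-like cluster 3, all barcodes together, the sum was 4205 CPM, but 568 without Meg3. Without Meg3, tanycyte-like clusters 11 and 12 had 171 and 246 CPM, and astrocyte-like cluster 1 had 576. The tanycyte-like sum was thus largely Meg3, which within cluster 3 was higher in high-mitochondrial barcodes in 2 of 3 libraries. The 5-day library stood apart among oligodendrocyte-like barcodes. There Meg3 had 276, 2584 and 99.5 CPM against 178, 285 and 171. It was called higher, but its log2 ratio was -0.25 without the 5-day library, and Npy1r had 7.46, 120 and 19.1 against 1.62, 1.74 and 4.27. Hypothalamic peptides, made by neurons, rose in 9 of 9 genes in tanycyte-like, 9 of 9 in oligodendrocyte-like and 8 of 10 in astrocyte-like barcodes. Of all genes tested 13.6%, 13.6% and 4.1% were higher in these classes. Ependymal-like cluster 2 had 1.69% high-mitochondrial barcodes and a median of 1220 non-mitochondrial UMIs. Its Agrp, Npy and Pomc had 68.3, 168 and 189 CPM, against 65.3, 176 and 201 in astrocyte-like cluster 1 and 20.4, 52.6 and 68.0 in tanycyte-like cluster 3. The part of free RNA in the rise was not tested. In tanycyte-like barcodes vasopressin (Avp) had 284, 150 and 103 CPM against 20.7, 8.35 and 12.8. The shared higher genes Slc6a17 and Syt1 are neuronal, and the part of neuronal RNA in their rise in glial classes was not tested. Oligodendrocyte markers in tanycyte-like barcodes had 1484, 1291 and 1533 CPM against 394, 214 and 257.

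Among the neuron-like clusters, cluster 20 stood apart in what RNA it held. It numbered 905 barcodes, 690 of them high-mitochondrial (76.2%), and its median mitochondrial share was 46.1%. Its high-mitochondrial barcodes had a median share of 55.2%, 54.7% and 49.0% and 1077 non-mitochondrial UMIs. In them Malat1 had 2571, 1341 and 4108 CPM, against 48520, 54310 and 58480 in the other high-mitochondrial neuron-like barcodes. Meg3 had 1093, 1119 and 1516 against 16400, 15950 and 16060, and Snhg11, another noncoding RNA of neurons, 603, 713 and 1148 against 14670, 14270 and 14880. The noncoding RNAs of neurons were therefore over 10 times lower in every library, while messenger RNAs of neurons were not.

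Snap25 had 695, 608 and 579 CPM in these barcodes against 552, 534 and 520, and Syt1 1298, 1131 and 1155 against 677, 717 and 659. Gad2, an enzyme of GABA synthesis, had 1376, 944 and 878 against 442, 463 and 470, and Slc17a6, the vesicular glutamate transporter, 310, 361 and 302 against 146, 105 and 108. Markers of inhibitory and excitatory neurons were thus both present. After thinning to 500 UMIs, Malat1 was not detected in 45.4%, 55.0% and 38.2% of these barcodes, against 0 to 9.09% of high-mitochondrial barcodes in each of the other neuron-like clusters over all libraries. The 215 low-mitochondrial barcodes of cluster 20 had the same property (53.02% without Malat1), with a median mitochondrial share of 9.60%. The genes that formed the cluster are among those compared, so these values are a description.

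**Figure D5:**
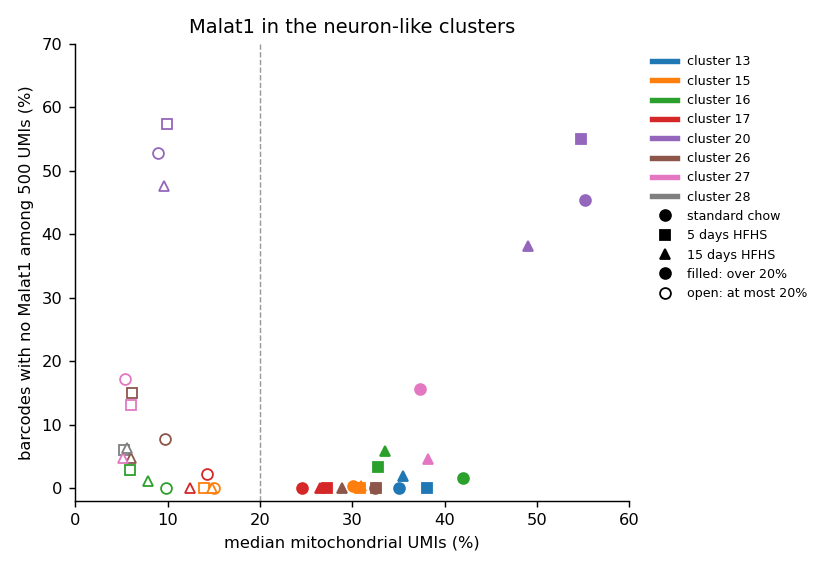
Percent of neuron-like barcodes with no Malat1 UMI among 500 thinned UMIs (y axis) by the median mitochondrial share of the same barcodes (x axis, percent), with 1 point per cluster (colour), library (shape) and state (filled for high-mitochondrial), and a dashed line at the limit of 20%. In cluster 20 the high-mitochondrial barcodes lie between 38.2% and 55.0%, above those of the other clusters.

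Malat1 therefore varied within high-mitochondrial barcodes more than its sum shows. Over all neuron-like barcodes it took 4.47%, 4.86% and 5.17% of UMIs in high- against 3.34%, 2.34% and 3.098% in low-mitochondrial ones (log2 ratio 0.50 ± 0.23, adjusted p = 0.084). The share of neuron-like barcodes with no Malat1 after thinning was 4.25% at 20 to 30% mitochondrial UMIs, 11.6% at 30 to 50% and 34.6% over 50% (30.3%, 44.0% and 30.1%). At 10 to 20% it was 12.2% and below 10% it was 13.5%. It was thus lowest just above the limit and highest over 50%.

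Between libraries, the non-mitochondrial RNA of high-mitochondrial barcodes was compared by size only, for neuron-like and astrocyte-like barcodes. A gene was past the rule with a ratio over the SC library of at least 1.5 and an exact counting interval that kept clear of small ratios. In neuron-like barcodes 38 of 7467 genes passed in the 5-day library (0.509%; 26 higher, 12 lower) and 145 of 7536 in the 15-day library (1.92%; 116 higher, 29 lower). In astrocyte-like barcodes 9 of 1747 (0.515%) and 105 of 1025 (10.2%) passed. Of the 90 astrocyte-like genes higher in the 15-day library 52 were ribosomal protein genes. The 15-day library thus differed more from the SC library than the 5-day one in both classes, each from 1 pool.

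In high-mitochondrial neuron-like barcodes Gstp1, a glutathione transferase, had 64.9 CPM in the 15-day against 10.9 in the SC library (log2 ratio 2.57, interval 2.04 to 3.13), and 2.99 on that scale in low-mitochondrial barcodes. Zfp799, a zinc finger gene, had 107 against 30.1 CPM (1.83), and 1.16 in low-mitochondrial barcodes. Both thus differed the same way on either side of the limit. Qrfp (2.59) and Oxt (-1.42), also past the rule in the 15-day library, did not, with -2.36 and 0.21 in low-mitochondrial barcodes. Of the 15-day genes past the rule, 102 of 116 higher and 27 of 29 lower ones had the same sign there. Of the 5-day genes it was 5 of 26 and 8 of 12. Avp was lower in both HFHS libraries, with 394 (5-day) and 164 (15-day) against 861 CPM. In the 5-day, 15-day and SC libraries 1 barcode held 36.7%, 29.7% and 24.4% of its UMIs. Without the top barcode of each library the log2 ratios of Avp were still negative, at -1.38 (5-day) and -2.49 (15-day). In low-mitochondrial neuron-like barcodes the log2 ratio of Avp was -0.76 in the 5-day and -0.14 in the 15-day library, against -1.13 and -2.39 in high-mitochondrial ones. Hcrt, the orexin precursor, had 77.8 CPM in the 5-day and 5.01 in the SC library, with 94.7% of its 5-day UMIs in 1 barcode. In high-mitochondrial astrocyte-like barcodes Kif5a was past the rule in both HFHS libraries, with log2 ratios of 0.76 (5-day) and 1.42 (15-day).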

How the data were processed

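Single-cell RNA was measured in 3 libraries. The values are whole-number UMI counts for 31253 genes, deposited by the authors without normalization. Cell Ranger 3.1.0 wrote them, per the file headers. The submitters' processing notes also name GRCm38, Scanpy 1.4.4 and SAMtools, and which annotation the counting used is not given in the sources used here. Libraries held 6397487, 5907851 and 4591975 UMIs in high-mitochondrial barcodes. Here, barcodes with at least 500 genes were clustered together without mitochondrial genes in Scanpy 1.11.5 (3000 variable genes, 40 components, 15 neighbours, Leiden resolution 1, Python 3.11.15). Clusters were named when at least 3 of a class's markers stood among 50 leading genes. Neuron-like subclusters with fewer took the name of the coarse cluster (resolution 0.1) that held most of them, a step chosen after seeing the data. This applied to every neuron-like cluster but cluster 16, which had 181 high-mitochondrial barcodes. Each neuron-like cluster had 7 to 10 of 10 neuron markers above every cluster of another named class.

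UMIs of non-mitochondrial genes were summed per class, library and state and tested with edgeR 4.0.16 (quasi-likelihood, library as a block, TMM, R 4.3.3), with DESeq2 1.42.0 and other settings as alternatives. The pairing comes from the library, which holds both states. The p-values set the difference between states against its spread over 3 pools of mice, each on another diet. That spread is estimated for each gene partly from all genes together, and it does not measure the spread between single mice. An exact permutation over 3 library pairs cannot give a p under 0.25. Percent intervals are Clopper-Pearson at 95% and cover counting error only. The rule for named genes took the markers and Malat1, 3 genes per class and direction by log2 ratio, 10 shared per direction, up to 4 per list by UMIs with members that went the other way, and 3 per direction and diet; 1 gene it named is not reported here. Gene spans came from GENCODE vM21 on GRCm38. Doublets were not removed: Scrublet's automatic call marked 0%, 0.0743% and 2.33% of barcodes and did not work in the SC and 5-day libraries. High-mitochondrial barcodes of SC and 5-day, SC and 15-day, and 5-day and 15-day libraries shared 0, 1 and 2 barcode sequences. The members and all lists were chosen with earlier results of these data known. The gene fit was tested on simulated data.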

Additional observations from a re-analysis of the deposited data

Results flagged for a closer look

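Groups of genes went in opposite directions between classes in every library. The values are log2 ratios of a group's percent of non-mitochondrial UMIs, high- over low-mitochondrial barcodes, as means over the 3 libraries, and the differences between classes were not tested. Ribosomal protein genes had 0.986 in astrocyte-like barcodes but -1.36 in neuron-like, -0.741 in oligodendrocyte-like and -0.661 in tanycyte-like barcodes. Translation factors had the same division, with 0.44 in astrocyte-like against -0.99, -1.12 and -0.685 in neuron-like, oligodendrocyte-like and tanycyte-like barcodes. Hypothalamic peptides, made by neurons, had -1.2 in neuron-like but 1.1 in astrocyte-like, 2.61 in oligodendrocyte-like and 2.81 in tanycyte-like barcodes. Agrp, Npy and Pomc in ependymal-like cluster 2, with 1.69% high-mitochondrial barcodes, were near their levels in astrocyte-like cluster 1. The part of free RNA was not tested. Cholesterol synthesis genes had 0.114 in neuron-like against -0.238 in astrocyte-like and -0.518 in oligodendrocyte-like barcodes.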

How the results depend on the processing

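With 3 libraries, 1 per diet, precision is limited by counting in 1 pool and by shallow barcodes. Without the library block the genes called were 607 in astrocyte-like, 4917 in neuron-like, 4211 in tanycyte-like and 3277 in oligodendrocyte-like barcodes, within 1.5 times the paired counts of 682, 5778, 4190 and 3381. In that order DESeq2 called 282, 3151, 2657 and 1968 genes, and thinning to 500 UMIs left 225, 1381, 1131 and 766. Within the 1 cluster that held most high-mitochondrial barcodes of a class, 142, 656 and 1263 were called in astrocyte-, neuron- and oligodendrocyte-like barcodes. That setting and the one without TMM scaling were chosen after seeing the data. Members over 30% gave 343, 2132 and 1424 (astrocyte-, tanycyte- and oligodendrocyte-like). In astrocyte-like barcodes a limit of 10% for the low group gave 1207, at least 1000 genes 386, Leiden resolution 2 1084 and classes by marker profile 1443. Leaving out 1 library gave 353 to 771 calls in astrocyte-like (lowest without SC), 3700 to 5682 in neuron-like (lowest without the 15-day library) and 2642 to 3615 in tanycyte-like barcodes (lowest without SC). Thinning, stricter limits and single clusters leave fewer UMIs by construction; otherwise the cause was not tested.

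High-mitochondrial shares follow the limit by construction. Over 15%, all barcodes gave 27.17% (27.47, 27.73 and 26.46% in SC, 5-day and 15-day), astrocyte-like 35.4% (40.93, 43.49 and 25.07%), neuron-like 76.84% (80.24, 75.53 and 74.54%), oligodendrocyte-like 21.38% (13.29, 20.05 and 29.66%) and tanycyte-like 20.47%. Over 30%, the values were 10.79% (10.76, 11.4 and 10.32%), 4.575% (5.482, 7.923 and 1.305%), 45.61% (45.73, 47.77 and 43.94%), 6.86% (2.693, 9.009 and 9.076%) and 5.694%. With at least 1000 genes they were 16.76% (17.94, 17.61 and 14.93%) for all, 9.666% (10.5, 15.22 and 4.88%) for astrocyte-like, 8.72% (7.048, 11.44 and 8.23%) for oligodendrocyte-like and 8.532% for tanycyte-like barcodes. The 15-day oligodendrocyte-like share was then below the 5-day one. With at least 250 genes they were 19.87% for all (19.92% in 5-day), 72.81% (73.87, 75.09 and 70.12%) for neuron-like and 9.644% for tanycyte-like barcodes. Classes by marker profile gave 17.47% for astrocyte-like (9.257% in 15-day), 64.44% (66.98, 64.82 and 61.61%) for neuron-like and 8.98% for tanycyte-like barcodes, and Leiden resolution 2 gave 9.208% for tanycyte-like barcodes.

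Median log2 ratios of the lists moved with the setting, and the cause was not tested. For the respiratory chain, thinning gave -0.05901 in astrocyte-like, -1.307 in neuron-like, -0.9797 in tanycyte-like and -0.9828 in oligodendrocyte-like barcodes, and equal weight of barcodes -0.01602, -1.225 and -1.01 in the first 3 of these. Single libraries gave -0.2615 (5-day) and 0.4696 (15-day) in astrocyte-like, -1.686 (SC) in neuron-like, -1.395 (15-day) in tanycyte-like and -1.736 (SC) in oligodendrocyte-like barcodes. For ribosomal proteins, thinning gave -0.9975, -0.7406 and -0.4841 and equal weight -0.9335, -0.7266 and -0.7576 in neuron-like, tanycyte-like and oligodendrocyte-like barcodes. Single libraries gave 1.382 (15-day) in astrocyte-like, -1.152 (SC) in neuron-like, -0.7516 (5-day) in tanycyte-like and -0.7586 (15-day) in oligodendrocyte-like barcodes. Without TMM scaling tanycyte-like barcodes had -1.151 (respiratory) and -0.6752 (ribosomal).

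Within the cluster with most high-mitochondrial barcodes, neuron-like medians were -0.1743 (respiratory), -0.181 (ribosomal), 0.1146 (heat shock), 0.06945 (endoplasmic reticulum chaperones) and 0.1795 (peptides), and oligodendrocyte-like ones -0.9755 and -0.5196 (respiratory and ribosomal). Equal weight gave 0.07581 for chaperones and -0.002738 for haemoglobin in neuron-like barcodes, and the 5-day library alone -0.2963 for haemoglobin in tanycyte-like barcodes. Genes that changed sign within that cluster were Eci1 (0.1251) and Meg3 (-0.3472) in astrocyte-like, Agrp (0.4416) and Prlr (-0.05426) in neuron-like, and Ntsr2 (-2.128) and Slc6a11 (-2.305) in oligodendrocyte-like barcodes. With members over 30%, Meg3 (-0.212) changed sign in oligodendrocyte-like barcodes. Leaving out 1 library gave Meg3 there -0.2545 (without the 5-day library) to 1.977. Of 418 medians of the other lists, 237 moved by less than the spread between libraries and 59 changed sign, 6 of them in lists with most genes called one way. Of the other values of named genes, 1799 kept direction and side of the threshold, 192 fell short of it and 35 newly passed it.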
